A study of Mus musculus with 12 samples.

Results

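The immediate early genes followed here are 34 genes, taken by symbol from a table of raw read counts that lists 55401 genes, and 33 of them had enough counts to be tested among 17699 genes in all. They were measured in left ventricle of wild-type mice and of mice with the T497A allele of Prkca, the gene of protein kinase C alpha, in which alanine takes the place of a threonine that is phosphorylated as the kinase matures. At 10 weeks of age the mice had sham surgery or transverse aortic constriction (TAC), in which a tie gauged by a 27-gauge needle narrows the aortic arch and raises the pressure load on the left ventricle. Tissue was taken 1 week later, at 11 weeks, and each of the 4 groups (wild-type sham, T497A sham, wild-type TAC and T497A TAC) had 3 libraries. The labels describe no transgene, Cre line or drug in any group, and give neither the strain nor whether animals were pooled. They do not say that the libraries of a group came from separate animals, so p-values measure the spread between these libraries, which may be technical. The question that the design poses is how the genes answered pressure overload under each genotype label.

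Immediate early genes are genes whose RNA can rise within minutes of a stimulus without new protein synthesis, and whose RNA is as a rule unstable, so that their level falls again quickly. Many are switched on through serum response factor with its ternary complex partners, downstream of MAP kinases, or through CREB, and many of their products are transcription factors (the FOS, JUN, EGR, KLF and NR4A families) or inhibitors that end the signal (dual-specificity phosphatases, SOCS3, the RNA-decay factor ZFP36). In the heart they are known to answer stretch, adrenergic agonists and acute pressure overload within the hour, and they also answer tissue handling. The samples here were taken a week after surgery, and no earlier time was analysed here.

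Library totals were 58932759 to 72594085 counts. In T497A sham, Xist, an X-linked RNA expressed in females, was at 160 to 215 CPM (counts relative to the scaled library size) and the Y-linked gene Ddx3y at 0.0999 to 0.396 CPM, while in the other 3 groups Xist was at 0.315 to 0.751 CPM and Ddx3y at 73.6 to 108 CPM. After sham, 104 autosomal genes had a called difference of 4-fold or more, 33 of them on chromosome 11, which also carries the member Socs3. Of the 104, 95 differed with the opposite sign between the TAC groups, 71 of these with a call, and only 1 had a call with the same sign. In every comparison that uses T497A sham, TAC against sham within that label included, sex and sample exchange therefore cannot be told apart from the labelled factor. The 2 TAC groups are alike in Xist and Ddx3y, and between them genotype and sample exchange cannot be told apart. An exchange would also put 2 genotypes into wild-type TAC against wild-type sham, so surgery and sample exchange cannot be told apart there. "T497A" and "wild type" below are the groups as labelled. The labels name cardiomyocytes as the cell type and left ventricle as the tissue. Summed endothelial markers were at 1262 to 1895 CPM and fibroblast markers at 2282 to 8957 CPM over the 12 libraries, so the values are read as those of tissue. In such tissue, fewer cells of a type and less RNA per cell cannot be told apart.

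The regulatory sequence just ahead of the start site is shown for 4 members because they stand for the patterns reported below: Egr2 had the widest rise with TAC in wild type, Btg2 and Fos differed between the labels after sham, and Nr4a1 varied most among wild-type sham libraries. Each sequence is the 250 bases before a RefSeq start site, on the gene's strand, in GRCm38.p6. They lie at chr10:67537619-67537868 (plus strand, Egr2), chr1:134079156-134079405 (minus strand, Btg2), chr12:85473640-85473889 (plus strand, Fos) and chr15:101266596-101266845 (plus strand, Nr4a1), outside annotated exons of the gene itself. Capitals mark matches on either strand to the CArG box (the element bound by serum response factor), TGACG (the core of the CREB element, whose reverse complement reads CGTCA, and which is contained in TGACGTCA), GCGNGGGCG (the EGR element) or TATAAA.
Egr2: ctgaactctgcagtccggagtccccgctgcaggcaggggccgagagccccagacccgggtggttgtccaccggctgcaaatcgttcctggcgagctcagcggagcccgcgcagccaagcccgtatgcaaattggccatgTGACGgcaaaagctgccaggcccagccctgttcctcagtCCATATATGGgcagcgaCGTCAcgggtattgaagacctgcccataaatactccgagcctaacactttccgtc
Btg2: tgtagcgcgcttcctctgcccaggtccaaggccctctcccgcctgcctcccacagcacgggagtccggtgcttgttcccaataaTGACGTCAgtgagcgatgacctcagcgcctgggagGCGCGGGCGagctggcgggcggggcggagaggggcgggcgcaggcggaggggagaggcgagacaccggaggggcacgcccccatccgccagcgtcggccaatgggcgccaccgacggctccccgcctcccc
Fos: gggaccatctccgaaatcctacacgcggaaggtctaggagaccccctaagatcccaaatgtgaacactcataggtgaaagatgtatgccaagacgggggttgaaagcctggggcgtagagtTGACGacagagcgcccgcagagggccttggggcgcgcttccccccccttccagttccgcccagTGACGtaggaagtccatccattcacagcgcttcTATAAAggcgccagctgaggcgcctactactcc
Nr4a1: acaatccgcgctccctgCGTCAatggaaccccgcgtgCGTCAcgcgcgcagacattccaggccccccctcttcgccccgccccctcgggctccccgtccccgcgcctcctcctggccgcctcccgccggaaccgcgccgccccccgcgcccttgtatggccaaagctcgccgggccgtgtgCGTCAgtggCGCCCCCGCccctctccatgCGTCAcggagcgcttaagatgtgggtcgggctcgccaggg
The Egr2 stretch held a CArG box at positions -72 to -63 from the start site and TGACG on both sides of it. Btg2 had the whole palindrome TGACGTCA at -166 to -159, then an EGR match at -131 to -123. Fos had TGACG at -129 to -125 and at -66 to -62, and TATAAA at -33 to -28. Nr4a1 had 4 TGACG matches and 1 EGR match. RefSeq windows, 250 bases before to 50 after a start site, were found for 28 of the 34 members (39 windows), and those of Arc, Ier2, Egr1, Egr3, Fosl1 and Myc were not. Searched on both strands, GCGNGGGCG occurred in 12 of the 28 members (42.9%, against 6.27% of all genes with a window), TGACG in 17 (60.7% against 23%), TGACGTCA in 4 (14.3% against 2.03%), the CArG box in 3 (10.7% against 1.81%) and TATAAA in 7 (25% against 15.7%). The AP-1 element TGANTCA occurred in 0 of 28, against 8.97% of all genes. A match is only a run of letters in the window and says nothing of binding.

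Per kilobase of exon, the members covered a wide range of levels. Averaged over the 4 groups, the lowest of the 33 was Fosb at 0.199 CPM per kb, followed by Dusp2 at 0.227, and the highest was Klf2 at 42.4, followed by Ier3 at 36.9, Jun at 31.3, Jund at 29.4 and Dusp1 at 26.5. Fosl1, which encodes the FOS relative FRA-1, was the member left out of the tests, with 6, 6 and 0 reads in wild-type sham, 2, 0 and 0 in T497A sham, 2, 15 and 6 in wild-type TAC and 6, 5 and 13 in T497A TAC. By group mean, T497A TAC was the highest group for 17 of the 33 tested members, against 13.8% of all tested genes, and wild-type TAC for 10 (38.9%). T497A sham was the lowest group for 17 members (27.1% of all genes) and wild-type sham for 11 (22.1%). The heat map of all libraries shows these levels against wild-type sham.

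**Figure D1:**
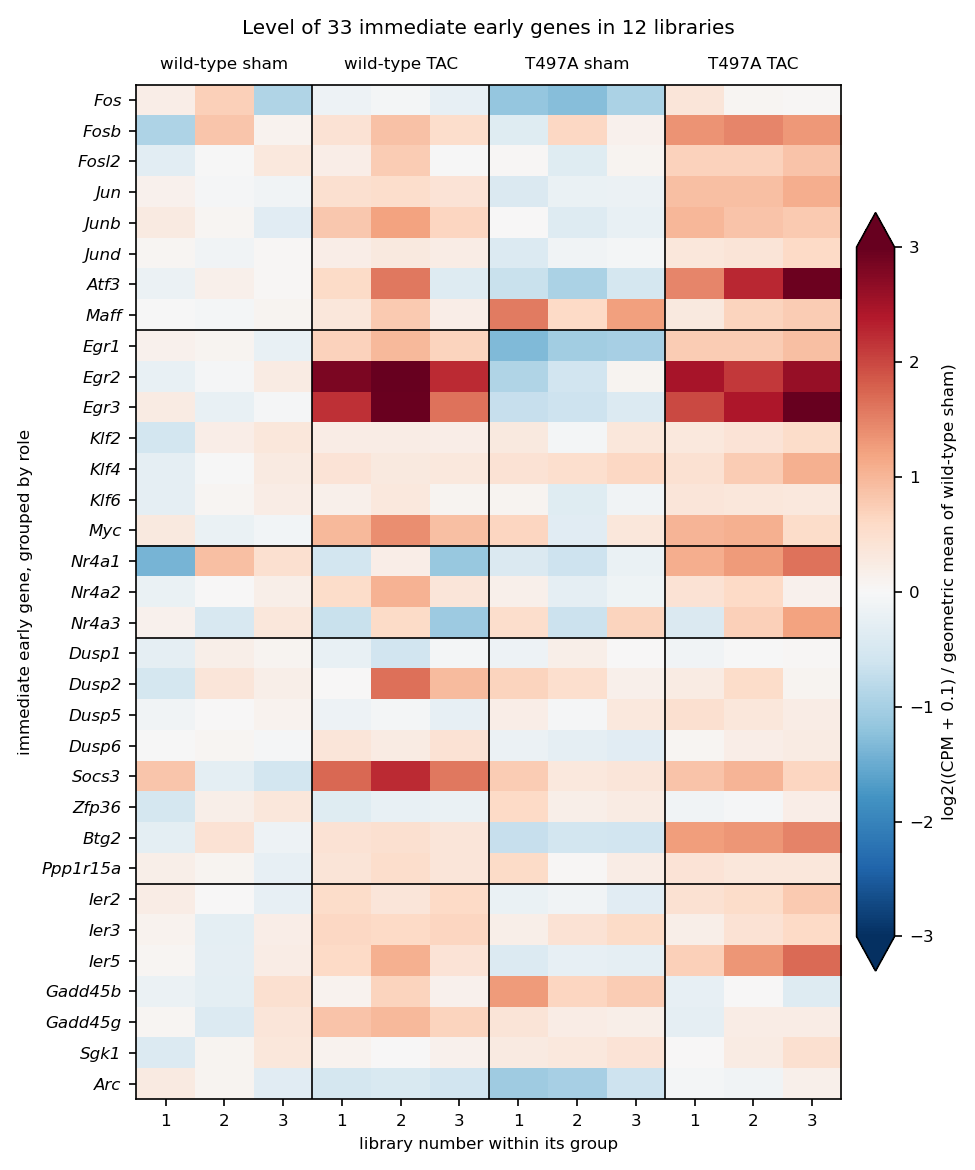
Levels of the 33 tested members (vertical axis, by role) in the 12 libraries (horizontal axis), as the log2 ratio of CPM + 0.1 to the geometric mean of the 3 wild-type sham libraries, with colours held at 3 above and below. Egr2 and Egr3 stand out in all 6 TAC libraries, Egr1 is below wild-type sham in all 3 T497A sham libraries, and Atf3 differs widely between libraries of the same TAC group.

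With TAC in wild type, 17 of 33 members passed the test at an adjusted p of 0.05 (51.5%), beside 49.9% of all genes, so the count of calls was near the background. Of these, 16 were higher (48.5% of members, 25.9% of all genes) and 1 was lower (3.03% of members, 24% of all genes), and the median log2 difference was 0.41 over the members and 0.03 over all genes. With TAC in T497A, 18 members passed (54.5%), beside 24.4% of all genes: 17 higher (51.5%, against 12.9%) and 1 lower (3.03%, against 11.4%), with a median of 0.50 over the members and 0.00 over all genes. These comparisons share no library. Each had 10 members called higher in the other too (10 of 16 and 10 of 17): Egr1, Egr2, Egr3, Jun, Junb, Jund, Btg2, Ier2, Ier5 and Dusp6. Another 6 were called higher in wild type alone (Myc, Nr4a2, Socs3, Ier3, Ppp1r15a, Gadd45g) and 6 in T497A alone (Fos, Fosb, Fosl2, Atf3, Klf6, Nr4a1), which does not by itself show that their responses differed. The share of all genes called higher in both comparisons was not counted. The overlap is therefore not read as particular to the members. The groups themselves did not overlap, TAC above sham, for 17 members in wild type (31.2% of all genes) and 17 in T497A (20.9%), and TAC was below sham without overlap for 1 member in each (29% and 19.8% of all genes).

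Scaling moved the wild-type counts. Factors of the trimmed mean of M-values (TMM) were 1.13 to 1.21 in wild-type TAC and 0.910 to 0.988 in the other 9 libraries. With library totals alone, the median of all genes in wild-type TAC against sham moved from 0.03 to 0.36, and the members split 21 higher and 0 lower in place of 16 and 1. Of all 17699 genes, 10357 were then called, 8466 of them higher, in place of 8831 with 4576 higher. In T497A the members split 16 higher and 1 lower without these factors, and 4175 of all genes were called, 2483 of them higher. Differences below are therefore relative to TMM scaling, and "fit" means 4 group means fitted over all 12 libraries with edgeR.

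The EGR factors, zinc finger proteins that bind GC-rich promoters, held the widest rise with TAC under each label (Egr2 in wild type, Egr3 in T497A), and all 3 rose under both labels. Egr2 was at 0.631, 0.734 and 0.913 CPM in wild-type sham, 0.359, 0.472 and 0.799 in T497A sham, 5.93, 13.8 and 3.93 in wild-type TAC and 4.64, 3.62 and 5.08 in T497A TAC. Every TAC library was above every sham library, and the 3 wild-type TAC libraries were themselves far apart. The rise was 10.4-fold in wild type (log2 3.37 ± 0.46, adjusted p = 7.9e-05) and 8.18-fold in T497A (log2 3.03 ± 0.46, adjusted p = 0.00081). Egr3, a close relative with a similar DNA-binding domain, went from 1.89, 1.32 and 1.54 CPM in wild-type sham to 7.52, 12.9 and 5.07 in wild-type TAC, and from 0.931, 0.9901 and 1.16 in T497A sham to 6.45, 8.89 and 13.2 in T497A TAC. Sham and TAC were again apart under both labels, by 2.42 ± 0.35 (adjusted p = 0.00013) in wild type and 3.21 ± 0.37 (adjusted p = 0.0001) in T497A on the log2 scale. The response did not pass as different between the labels for Egr2 (interaction -0.34 ± 0.64, adjusted p = 0.74) or Egr3 (0.79 ± 0.49, adjusted p = 0.27), and without wild-type TAC 2, the highest of its group, Egr3 was called (1.22, adjusted p = 0.030) and the Egr2 value turned to 0.34 (adjusted p = 0.60).

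Egr1, the most abundant of the EGR factors here per length, differed between the labels after sham and in its response to TAC. It was at 25.9, 25.3 and 20.5 CPM in wild-type sham and 9.37, 11.5 and 11.8 in T497A sham. The sham groups did not overlap, and T497A was lower (log2 -1.13 ± 0.11, adjusted p = 6.6e-05). After TAC the groups met, at 38.6, 46.4 and 38.02 in wild type and 40.1, 40.5 and 44.3 in T497A, with no call between them. Its rise with TAC was 0.78 ± 0.11 (adjusted p = 3.8e-05) in wild type and 1.93 ± 0.11 (adjusted p = 1.8e-07) in T497A, and the responses differed by 1.15 ± 0.16 (adjusted p = 0.00013). All of these Egr1 calls held in every alternative run.

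**Figure D2:**
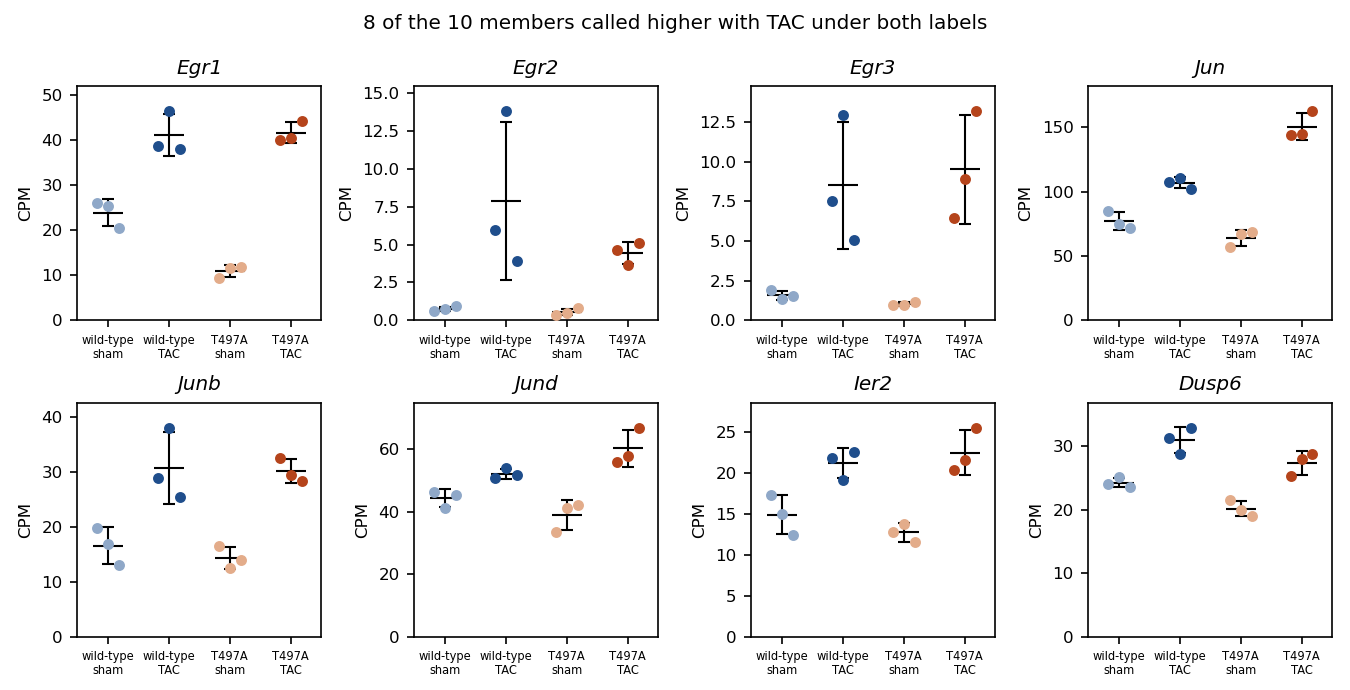
CPM (vertical axis, from 0) of 8 of the 10 members called higher with TAC under both labels, in the 4 groups (horizontal axis); points are libraries and bars the mean with its SD. Both TAC groups lie above their sham group for all 8, the T497A sham points of Egr1 lie below those of wild-type sham, and 1 wild-type TAC library lies above all others in Egr2.

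Among the JUN proteins, which pair with FOS proteins to form the factor AP-1, all 3 rose with TAC under both labels. Jun was at 84.8, 74.7 and 71.99 CPM in wild-type sham, 56.8, 66.9 and 68.5 in T497A sham, 107, 111 and 102 in wild-type TAC and 144, 145 and 163 in T497A TAC. The 4 groups did not overlap at any step, in the order T497A sham, wild-type sham, wild-type TAC, T497A TAC, although the step between the sham groups did not pass the test (-0.27 ± 0.08, adjusted p = 0.07), except by DESeq2, with no filter on low counts or without wild-type TAC 2 (adjusted p 0.027 to 0.046). Jun rose by 0.47 ± 0.08 (adjusted p = 0.00022) in wild type and by 1.23 ± 0.08 (adjusted p = 4.0e-07) in T497A, and its response was called larger in T497A (interaction 0.76 ± 0.11, adjusted p = 0.00026). It was also higher in T497A TAC than in wild-type TAC (0.50 ± 0.08, adjusted p = 0.0003).

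Junb, the JUN protein that often restrains the others, rose under both labels, with 19.8, 16.9 and 12.9 CPM in wild-type sham against 28.9, 38.03 and 25.4 in wild-type TAC, and 16.4, 12.5 and 13.9 in T497A sham against 32.6, 29.4 and 28.3 in T497A TAC. Under neither label did sham and TAC overlap, and the rises were 0.89 ± 0.17 (adjusted p = 0.001) and 1.08 ± 0.17 (adjusted p = 0.001), with an interaction of 0.18 ± 0.24 that was not called (adjusted p = 0.62). Jund, the member of the family with the steadiest expression in most tissues, rose least, by 0.24 ± 0.09 (adjusted p = 0.042) in wild type and 0.63 ± 0.09 (adjusted p = 0.0002) in T497A, from 41.1 to 46.5 and 33.4 to 42.3 CPM in the sham groups to 50.9 to 54.03 and 55.96 to 67.00 CPM with TAC. The wild-type call of Jund was lost on leaving out any library of wild-type sham, any library of wild-type TAC or library 2 of T497A TAC, with DESeq2 size factors, or by DESeq2 (adjusted p 0.052 to 0.17). Its interaction was 0.40 ± 0.13 (adjusted p = 0.03). The Jund interaction was lost on leaving out library 1 or 3 of wild-type sham, library 1 of T497A sham, library 1 of wild-type TAC or library 3 of T497A TAC, or with library totals alone (adjusted p 0.058 to 0.57). Exons of these 3 genes overlap genes on the other strand (Jun with Junos over 232 bases, Junb with Prdx2 over 173, Jund with Gm11175 over 877), and since the strand setting of the counts is not given in the sources used here, reads of the overlap cannot be assigned.

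The 3 tested FOS genes, which encode the partners of JUN in AP-1, were called with TAC under the T497A label and not in wild type, and the interaction was called for Fos. Fos was at 7.37, 10.5 and 3.35 CPM in wild-type sham, a 3-fold range, and at 5.75, 6.102 and 5.37 in wild-type TAC, inside that range (-0.30 ± 0.30, adjusted p = 0.44). In T497A it went from 2.79, 2.56 and 3.26 CPM in sham to 8.29, 6.71 and 6.495 in TAC. Those groups were apart, and Fos rose by 1.32 ± 0.31 (adjusted p = 0.0092). Without wild-type sham 3, the lowest of its group, Fos was called lower in wild-type TAC (-0.64, adjusted p = 0.0086). The interaction was 1.62 ± 0.43 (adjusted p = 0.014). The Fos interaction was lost with no filter on low counts (adjusted p = 0.059). After sham, Fos was lower under the T497A label (log2 -1.30 ± 0.31, adjusted p = 0.031), with groups that narrowly missed overlap. The Fos difference after sham was lost on leaving out library 1 or 2 of wild-type sham, any library of T497A sham, library 1 of wild-type TAC or library 2 of T497A TAC, by limma-voom, with no filter on low counts, or with only the compared groups in the fit (adjusted p 0.052 to 0.14).

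Fosb, at 0.341 to 2.22 CPM over all libraries the least abundant tested member per length, was at 0.555, 1.19 and 0.815 CPM in T497A sham and 2.03, 2.22 and 1.97 in T497A TAC. The groups were apart, and the difference was 1.28 ± 0.39 (adjusted p = 0.027). The Fosb rise was lost on leaving out library 1 or 3 of T497A sham or any library of T497A TAC (adjusted p 0.053 to 0.096). Fosl2, which encodes FRA-2, was at 46.00, 34.9 and 47.2 CPM in T497A sham and 72.04, 71.6 and 80.5 in T497A TAC, also apart, with a rise of 0.81 ± 0.22 (adjusted p = 0.025). The Fosl2 rise was lost on leaving out library 1 or 2 of T497A sham or any library of T497A TAC, or with no filter on low counts (adjusted p 0.054 to 0.079). In wild type neither was called, at 0.50 ± 0.39 (adjusted p = 0.31) for Fosb and 0.33 ± 0.22 (adjusted p = 0.25) for Fosl2, though Fosb was called without wild-type sham 2 (1.05, adjusted p = 0.043) and Fosl2 with library totals alone (0.67, adjusted p = 0.038), and neither interaction was called (adjusted p = 0.32 and 0.29), save that of Fosl2 by limma-voom (adjusted p = 0.034).

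Atf3, a stress-induced factor that binds the same kind of element as AP-1 and CREB, had the largest log2 rise in T497A after Egr3. It was at 4.25, 3.49 and 4.73 CPM in T497A sham and 18.9, 33.3 and 52.8 in T497A TAC, where the highest library was 2.79-fold above the lowest. Even so the groups were far apart, by 3.08 ± 0.54 (adjusted p = 0.0039). In wild type the sham libraries were at 6.04, 7.56 and 6.93 CPM and the TAC libraries at 10.3, 20.7 and 5.16, 1 of them below all sham libraries and 2 above, and the difference was 0.81 ± 0.51 (adjusted p = 0.23). The interaction was 2.26 ± 0.73 (adjusted p = 0.047). This Atf3 call was lost on leaving out any library of wild-type sham, any library of T497A sham, library 1 or 3 of wild-type TAC or library 2 or 3 of T497A TAC, with library totals alone, or with no filter on low counts (adjusted p 0.053 to 0.098). Between the TAC groups Atf3 was higher in T497A by 1.54 ± 0.50 (adjusted p = 0.041). It was lost on leaving out any library of wild-type sham, any library of T497A sham, library 1 or 3 of wild-type TAC or library 2 or 3 of T497A TAC, with library totals alone, with no filter on low counts, with only the compared groups in the fit, or on leaving out all T497A sham libraries (adjusted p 0.058 to 0.14).

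Maff, a small MAF protein that lacks an activation domain, was the 1 member called higher in the T497A group after sham. It was at 8.24, 7.94 and 8.82 CPM in wild-type sham, where the libraries lay close together, and at 24.5, 12.6 and 19.6 in T497A sham. The groups were apart by 1.18 ± 0.23 (adjusted p = 0.013). This call was lost on leaving out library 1 or 2 of wild-type sham (adjusted p 0.059 to 0.062). With TAC it was at 10.5, 14.5 and 9.59 in wild type and 10.3, 13.3 and 14.3 in T497A, with no call in either (0.47 ± 0.23, adjusted p = 0.12 and -0.58 ± 0.23, adjusted p = 0.086). The wild-type value was, however, called with library totals alone, with only the compared groups in the fit and without T497A sham 2 or the whole T497A sham group (adjusted p 0.016 to 0.031). The T497A value was called lower by DESeq2 (-0.59, adjusted p = 0.022) and without T497A sham 2 (-0.81, adjusted p = 0.0067). Its interaction was called, at -1.05 ± 0.32 (adjusted p = 0.031). It was lost on leaving out any library of wild-type sham, library 1 or 3 of T497A sham, library 2 of wild-type TAC or library 1 or 2 of T497A TAC, or with no filter on low counts (adjusted p 0.053 to 0.1).

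The KLF factors, zinc finger proteins with roles in vessel wall and stress responses, had few calls. Klf6 rose in T497A, from 98.3, 72.2 and 86.3 CPM to 118, 116 and 115, by 0.45 ± 0.12 (adjusted p = 0.021). The Klf6 call was lost on leaving out library 2 or 3 of T497A sham or any library of T497A TAC, or with no filter on low counts (adjusted p 0.052 to 0.064). It was at 76.3, 95.8 and 108 CPM in wild-type sham and 103, 115 and 98.3 in wild-type TAC, ranges that overlap. Klf4 was called in neither TAC comparison (0.32 ± 0.15, adjusted p = 0.11 in wild type and 0.26 ± 0.15, adjusted p = 0.25 in T497A). The wild-type value was called with library totals alone, by limma-voom and without wild-type sham 3 or T497A TAC 1 (adjusted p 0.0037 to 0.048). Klf4 was higher in T497A TAC than in wild-type TAC by 0.45 ± 0.15 (adjusted p = 0.041). The Klf4 call was lost on leaving out library 2 of wild-type sham, any library of T497A sham, any library of wild-type TAC or library 2 or 3 of T497A TAC, with library totals alone, with no filter on low counts, or on leaving out all T497A sham libraries (adjusted p 0.051 to 0.32). Klf2, which laminar flow induces in endothelium and which was the most abundant member per length, was called in none of the 7 comparisons, and its libraries spanned 45.6 to 84.9 CPM in wild-type sham and 83.6 to 98.2 in T497A TAC.

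Myc, the growth-promoting factor, rose in wild type from 3.48, 2.44 and 2.67 to 5.61, 7.64 and 5.37 CPM. The groups were well apart, by 1.11 ± 0.24 (adjusted p = 0.0016). In T497A it was at 4.51, 2.22 and 3.59 in sham and 5.89, 6.06 and 4.21 in TAC, which overlap, with a difference of 0.65 ± 0.24 (adjusted p = 0.068) that was not called. Myc was called in T497A by DESeq2, by limma-voom and without T497A sham 1, wild-type TAC 2 or T497A TAC 3 (adjusted p 0.013 to 0.046), and the interaction was not called either (-0.47 ± 0.34, adjusted p = 0.34).

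The NR4A receptors are orphan nuclear receptors that act without a known hormone, and Nr4a3 and Nr4a1 varied the most of all members among libraries of a group. Nr4a1 was at 15.6, 77.05 and 57.6 CPM in wild-type sham, a 4.93-fold range, and 27.9, 46.8 and 18.7 in wild-type TAC, within that range. In T497A it was at 30.2, 26.5 and 35.9 in sham and 87.3, 99.2 and 126 in TAC. These groups were apart, with a rise of 1.76 ± 0.55 (adjusted p = 0.05). The Nr4a1 rise was lost on leaving out library 3 of wild-type sham, any library of T497A sham, library 1 or 3 of wild-type TAC or any library of T497A TAC, with DESeq2 size factors, with library totals alone, or with no filter on low counts (adjusted p 0.051 to 0.13).

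The difference of Nr4a1 in wild type was -0.68 ± 0.54 (adjusted p = 0.33), called only without wild-type sham 1 (-1.11, adjusted p = 0.037). The interaction was 2.44 ± 0.77 (adjusted p = 0.044). The Nr4a1 interaction was lost on leaving out library 2 or 3 of wild-type sham, any library of T497A sham, library 1 or 3 of wild-type TAC or any library of T497A TAC, with library totals alone, or with no filter on low counts (adjusted p 0.063 to 0.098). Between the TAC groups Nr4a1 was higher in T497A by 1.74 ± 0.55 (adjusted p = 0.038). Here the call was lost on leaving out library 3 of wild-type sham, any library of T497A sham, library 1 or 3 of wild-type TAC or any library of T497A TAC, with library totals alone, with no filter on low counts, or on leaving out all T497A sham libraries (adjusted p 0.053 to 0.11). Nr4a2 rose in wild type, from 1.93, 2.27 and 2.55 to 3.33, 4.68 and 2.899 CPM, by 0.69 ± 0.21 (adjusted p = 0.014). The Nr4a2 rise was lost on leaving out library 1 of wild-type sham or library 2 of wild-type TAC (adjusted p 0.065 to 0.088). It was not called in T497A (0.50 ± 0.21, adjusted p = 0.11) except by limma-voom (0.62, adjusted p = 0.031). Nr4a3 was called in no comparison, and its libraries spanned 5.52 to 17.7 CPM in wild-type TAC and 8.77 to 27.4 in T497A TAC.

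**Figure D3:**
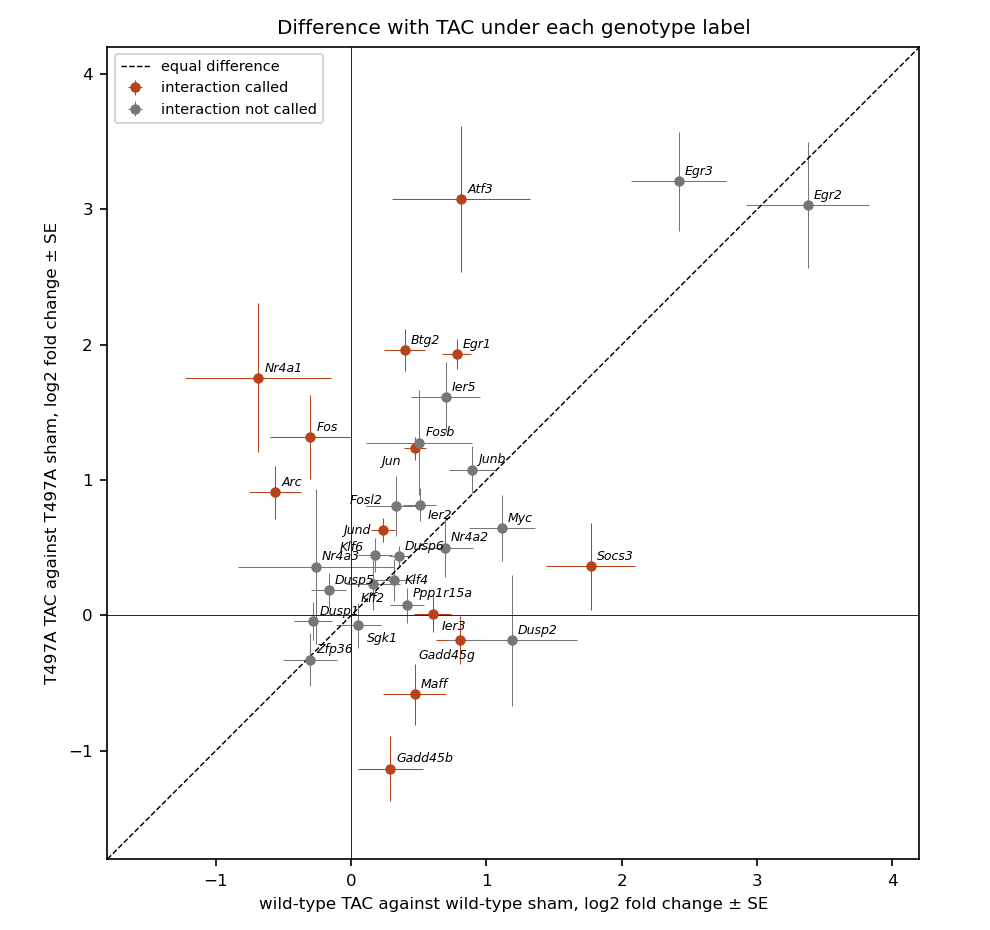
Log2 difference of TAC over sham in wild type (horizontal axis) and in T497A (vertical axis) for the 33 tested members, from the edgeR fit; bars are SE, the dashed line marks equal values and orange points have a called interaction. Egr2 and Egr3 lie far out on both axes, Atf3, Fos and Nr4a1 lie above the line, and Socs3 and Gadd45b lie below it.

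Of the inhibitors that end a signal, Dusp6 and Btg2 rose under both labels and Socs3 and Ppp1r15a in wild type, while Dusp1, Dusp2, Dusp5 and Zfp36 had no call with TAC. Dusp6, the phosphatase that takes ERK as its substrate, was the tightest member, with 24.1, 25.1 and 23.7 CPM in wild-type sham and 31.3, 28.8 and 32.97 in wild-type TAC, then 21.5, 20.02 and 19.1 in T497A sham and 25.3, 27.96 and 28.9 in T497A TAC. Neither pair overlapped, and the rises were 0.35 ± 0.07 (adjusted p = 0.0012) and 0.44 ± 0.08 (adjusted p = 0.00081). Dusp1 and Dusp2, nuclear phosphatases of MAP kinases, were called in none of the 7 comparisons, Dusp1 at 61.1 to 103 CPM and Dusp2 at 0.171 to 1.13 CPM over all libraries. The wild-type difference of Dusp2 (1.19 ± 0.49, adjusted p = 0.055) was called by DESeq2, with library totals alone and without wild-type TAC 1 (adjusted p 0.012 to 0.044). Dusp5, a nuclear ERK phosphatase, was not called with TAC under either label and was higher in T497A TAC (8.03, 7.19 and 6.64 CPM) than in wild-type TAC (5.06, 5.43 and 4.74 CPM) by 0.52 ± 0.13 (adjusted p = 0.0051). That call was lost with library totals alone (adjusted p = 0.13), and its exons overlap an antisense gene over 547 bases.

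Socs3, the inhibitor of gp130 and JAK signalling, was at 5.61, 2.51 and 2.096 CPM in wild-type sham and 10.5, 14.96 and 9.43 in wild-type TAC. The TAC libraries were all above the sham libraries, by 1.77 ± 0.33 (adjusted p = 0.00087). In T497A it was at 5.32, 3.87 and 3.99 in sham and 5.71, 6.401 and 4.86 in TAC, which overlap (0.36 ± 0.32, adjusted p = 0.46). The interaction was -1.41 ± 0.46 (adjusted p = 0.039). The Socs3 interaction was lost on leaving out library 2 or 3 of wild-type sham, any library of T497A sham, library 1 or 2 of wild-type TAC or any library of T497A TAC, or with no filter on low counts (adjusted p 0.055 to 0.13). Between the TAC groups Socs3 was lower in T497A (log2 -1.04 ± 0.32, adjusted p = 0.025). The Socs3 difference was lost on leaving out library 2 of wild-type TAC or library 1 or 3 of T497A TAC, or with no filter on low counts (adjusted p 0.073 to 0.11).

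Zfp36, which binds AU-rich elements and speeds decay of unstable RNAs, was at 26.9 to 48.4 CPM in wild-type sham, 29.9 to 33.7 in wild-type TAC, 43.6 to 58.7 in T497A sham and 35.9 to 44.6 in T497A TAC, with no call with TAC under either label. Ppp1r15a (GADD34), which brings a phosphatase to the translation factor eIF2 alpha, went from 19.5, 18.3 and 14.5 CPM in wild-type sham to 22.5, 24.9 and 22.1 in wild-type TAC, by 0.41 ± 0.13 (adjusted p = 0.015). The groups were apart. The Ppp1r15a call was lost on leaving out library 3 of wild-type sham or library 2 of wild-type TAC (adjusted p 0.059 to 0.077). It was not called in T497A, at 17.8 to 25.8 CPM in sham and 21.8 to 23.1 in TAC.

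Btg2, an antiproliferative factor that recruits the deadenylase complex, was called in all 7 comparisons. It was at 38.8, 63.97 and 42.6 CPM in wild-type sham and 63.9, 66.5 and 61.00 in wild-type TAC, which overlap through 1 sham library, and the difference was 0.40 ± 0.15 (adjusted p = 0.047). That call was lost on leaving out library 1 or 3 of wild-type sham, any library of T497A sham, any library of wild-type TAC or any library of T497A TAC, with DESeq2 size factors, with no filter on low counts, with only the compared groups in the fit, or on leaving out all T497A sham libraries (adjusted p 0.054 to 0.15). In T497A it went from 29.3, 32.3 and 31.8 to 113, 118 and 133 CPM, far apart, by 1.96 ± 0.16 (adjusted p = 1.0e-05), and the interaction of 1.56 ± 0.21 (adjusted p = 0.00035) held in every alternative. After sham, Btg2 was lower in the T497A group (log2 -0.64 ± 0.15, adjusted p = 0.033). The Btg2 difference after sham was lost on leaving out any library of T497A sham, any library of wild-type TAC or library 2 of T497A TAC, with no filter on low counts, or with only the compared groups in the fit (adjusted p 0.051 to 0.15). After TAC it was higher in T497A by 0.93 ± 0.15 (adjusted p = 0.00066), which held in every alternative.

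Among the effectors, the growth-arrest genes Gadd45b and Gadd45g, whose products bind stress kinases and cell cycle proteins, responded to TAC differently under the labels. Gadd45b was at 19.4, 12.4 and 13.4 CPM in T497A sham and 6.66, 7.97 and 6.02 in T497A TAC, where it fell without overlap (log2 -1.13 ± 0.24, adjusted p = 0.0057). In wild type it was at 6.94, 6.46 and 11.1 in sham and 8.57, 12.7 and 8.72 in TAC, which overlap (0.29 ± 0.24, adjusted p = 0.35), and the interaction was -1.42 ± 0.34 (adjusted p = 0.0088). Gadd45g rose in wild type, from 9.399, 6.77 and 11.7 to 16.4, 17.9 and 14.5 CPM, by 0.81 ± 0.18 (adjusted p = 0.0021). In T497A it was at 11.9, 10.6 and 10.2 in sham and 7.53, 10.7 and 10.6 in TAC, which overlap and were not called, and the interaction was -0.99 ± 0.25 (adjusted p = 0.011). T497A TAC was below wild-type TAC without overlap (-0.76 ± 0.18, adjusted p = 0.0049), and the interaction calls of both genes held in every alternative.

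Arc, best known for its capsid-like protein at synapses, was called with opposite signs under the labels. It was at 3.94, 3.45 and 2.57 CPM in wild-type sham and 2.25, 2.34 and 2.17 in wild-type TAC, lower (log2 -0.56 ± 0.19, adjusted p = 0.024). In T497A it was at 1.52, 1.599 and 2.097 in sham and 3.14, 3.02 and 3.63 in TAC, a rise of 0.91 ± 0.19 (adjusted p = 0.0036). Neither pair overlapped, and the interaction was 1.47 ± 0.27 (adjusted p = 0.0011), called in every alternative. The lower wild-type value was lost on leaving out library 1 or 2 of wild-type sham or library 1 or 3 of wild-type TAC, or with library totals alone (adjusted p 0.06 to 0.33). After sham Arc was lower in T497A (log2 -0.93 ± 0.19, adjusted p = 0.012). The Arc difference after sham was lost on leaving out library 1 of wild-type sham (adjusted p = 0.062). After TAC it was higher by 0.54 ± 0.19 (adjusted p = 0.039). The Arc difference after TAC was lost on leaving out library 2 of wild-type sham, any library of wild-type TAC or any library of T497A TAC, with library totals alone, or with no filter on low counts (adjusted p 0.051 to 0.24).

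Ier2 and Ier5, small nuclear proteins of the same family, rose under both labels, and Ier3, known for roles in cell survival, in wild type. Ier2 was at 17.2, 15.01 and 12.4 CPM in wild-type sham and 21.8, 19.1 and 22.5 in wild-type TAC, and at 12.8, 13.8 and 11.6 in T497A sham and 20.3, 21.5 and 25.5 in T497A TAC. Neither pair overlapped, and it rose by 0.51 ± 0.12 (adjusted p = 0.0028) and 0.82 ± 0.12 (adjusted p = 0.00027). Ier5 went from 39.8, 31.8 and 44.8 to 58.3, 80.2 and 50.8 CPM in wild type (0.70 ± 0.25, adjusted p = 0.045). The wild-type Ier5 call was lost on leaving out any library of wild-type sham, any library of T497A sham, library 1 or 2 of wild-type TAC or library 2 of T497A TAC, with no filter on low counts, or on leaving out all T497A sham libraries (adjusted p 0.053 to 0.18). In T497A it went from 29.1, 32.4 and 31.99 to 63.3, 96.5 and 126 CPM, apart from sham in every library and called in every alternative (1.61 ± 0.26, adjusted p = 0.002).

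Ier3 was at 34.6, 25.96 and 36.7 CPM in wild-type sham and 49.2, 48.4 and 50.4 in wild-type TAC, without overlap, and rose by 0.60 ± 0.14 (adjusted p = 0.0027). In T497A sham and TAC overlapped, at 36.2 to 47.7 and 36.4 to 48.4 CPM, with no call, and the interaction was -0.59 ± 0.19 (adjusted p = 0.037). The Ier3 interaction was lost on leaving out library 1 or 2 of wild-type sham, library 2 or 3 of T497A sham, any library of wild-type TAC or library 1 or 2 of T497A TAC, or with no filter on low counts (adjusted p 0.0503 to 0.11). Sgk1, a kinase induced by serum and by corticosteroids, was called in no comparison, at 49.98 to 84.5 CPM in wild-type sham, 80.3 to 88.7 in T497A sham, 67.05 to 73.3 in wild-type TAC and 66.9 to 93.1 in T497A TAC.

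Between the sham groups, which differ in Xist and Ddx3y, 5 of 33 members were called (15.2%), beside 5.79% of all genes: Maff higher (3.03% of members, 2.99% of all genes) and Egr1, Fos, Btg2 and Arc lower (12.1%, against 2.8%), with a median of -0.09 over the members and 0.00 over all genes. Of these calls, that of Egr1 held in every alternative. Without overlap, T497A sham was below wild-type sham for 8 members (13.5% of all genes) and above it for 3 (12.9%). Between the TAC groups, which do not, 9 members were called (27.3%), beside 35.7% of all genes: Jun, Atf3, Klf4, Nr4a1, Dusp5, Btg2 and Arc higher in T497A (21.2%, against 17.8%) and Socs3 and Gadd45g lower (6.06%, against 17.9%). The count was under the background, and the direction of the calls depended on scaling, for the members as for all genes. With library totals alone, 2 members were higher (Jun and Btg2) and 6 lower (Egr2, Gadd45b, Dusp6, Socs3, Gadd45g and Ier3). The median of all genes moved from -0.02 to -0.27. Of all 17699 genes, 8332 were called with library totals alone, 1458 of them higher, in place of 6321 with 3156 higher.

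The interaction term, which asks whether the response to TAC differed between the labels, was called for 13 members (39.4%), beside 29.5% of all genes. It was positive, with the T497A difference above that of wild type, for Fos, Jun, Jund, Atf3, Egr1, Nr4a1, Btg2 and Arc (24.2%, against 15.3%). For Arc this was a called rise in T497A and a called drop in wild type. The term was negative for Maff, Socs3, Ier3, Gadd45b and Gadd45g (15.2%, against 14.2%). Its median was 0.24 over the members and -0.01 over all genes. With library totals alone the split was 5 positive and 6 negative, with the median of all genes at -0.31. Of all 17699 genes, 6869 had a called interaction under that setting, and only 1175 of these were positive. Calls of 6 of the 13 held in every alternative, namely Jun, Egr1, Btg2, Gadd45b, Gadd45g and Arc. The interaction rests on the T497A sham libraries, whose Xist and Ddx3y values differ from those of all other groups.

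**Figure D4:**
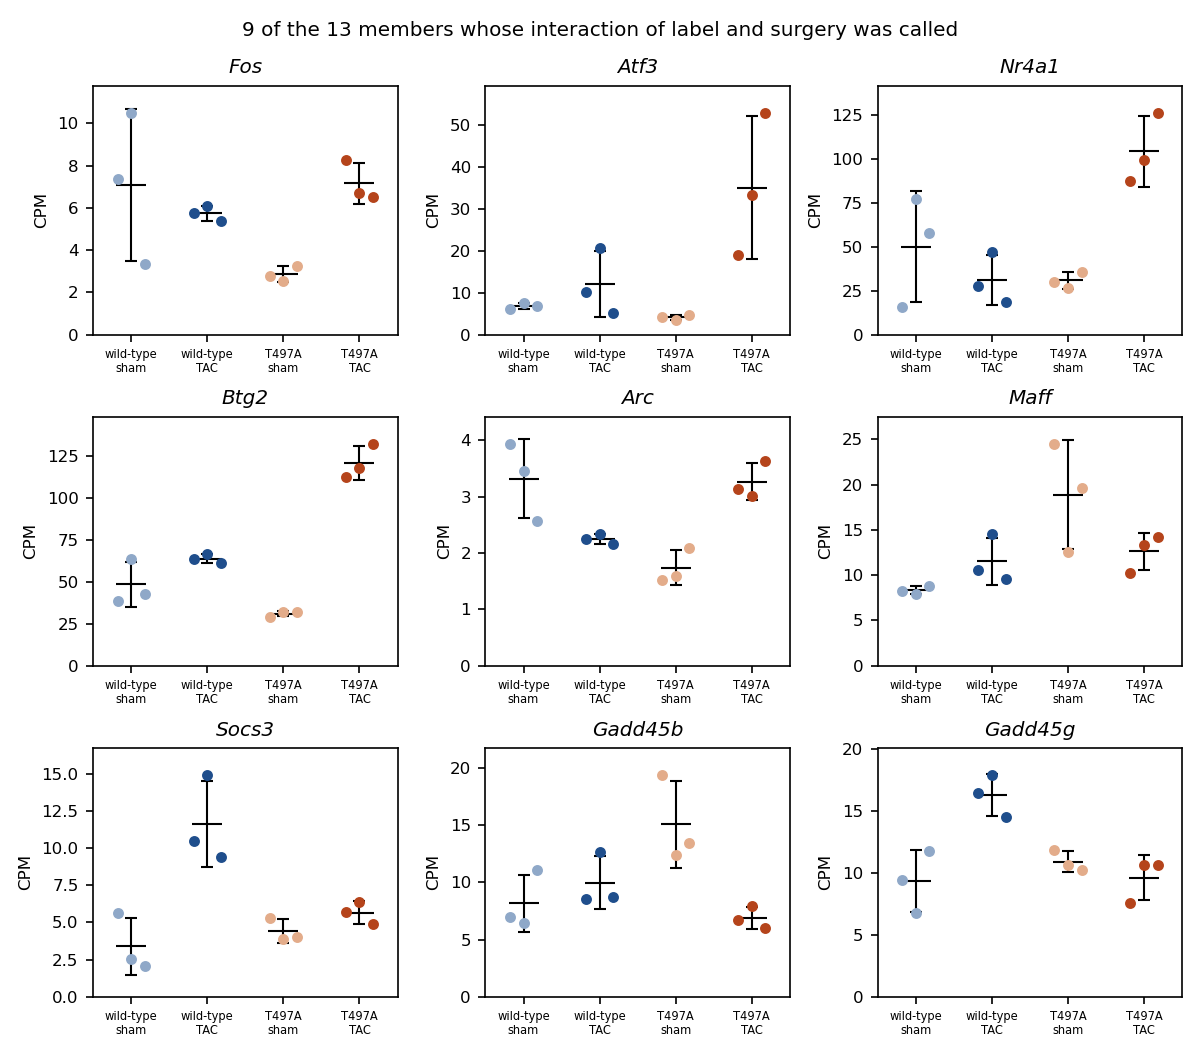
CPM (vertical axis, from 0) in the 4 groups (horizontal axis) of 9 of the 13 members with a called interaction; points are libraries and bars the mean with its SD. For Fos, Atf3, Nr4a1, Btg2 and Arc the step from sham to TAC is larger in T497A or has the opposite sign, and for Maff, Socs3, Gadd45b and Gadd45g it is larger in wild type or is a drop in T497A.

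Set across the labels, the TAC groups were also compared with the sham group of the other label, which shares libraries with the comparisons above. Genotype label and surgery change together in these comparisons and cannot be told apart. T497A TAC against wild-type sham, 2 groups alike in Xist and Ddx3y, had 12 members called higher (36.4%, against 6.12% of all genes) and 0 lower (3.9% of all genes), beside 10.0% called either way. These were Jun (0.96 ± 0.08), Junb (0.86 ± 0.17), Jund (0.44 ± 0.09), Atf3, Egr1 (0.80 ± 0.11), Egr2 (2.55 ± 0.45), Egr3 (2.58 ± 0.35), Klf4, Myc, Btg2 (1.32 ± 0.15), Ier2 (0.59 ± 0.12) and Ier5, and those given with a value held in every alternative. Atf3 was lost here on leaving out any library of wild-type sham or library 2 or 3 of T497A TAC, or on leaving out all T497A sham libraries (adjusted p 0.054 to 0.1). Myc was lost on leaving out library 2 or 3 of wild-type sham or library 1 or 2 of T497A TAC (adjusted p 0.084 to 0.13). Ier5 was lost on leaving out library 1 or 2 of wild-type sham or library 2 of T497A TAC, or with only the compared groups in the fit (adjusted p 0.056 to 0.062), and Klf4 with only the compared groups in the fit (adjusted p = 0.092). The groups did not overlap for 20 members, all with TAC higher (17.0% of all genes), and for 0 with TAC lower (16.6%). By DESeq2 and limma-voom also, no member was called lower there. Of all 17699 genes, DESeq2 called 2725, 1486 of them higher, and limma-voom 3971, 2054 of them higher. In the edgeR fit the median was 0.59 over the members and 0.00 over all genes. Fos was not called between these groups, at 3.35 to 10.5 CPM in wild-type sham and 6.495 to 8.29 in T497A TAC, nor was Arc, at 2.57 to 3.94 and 3.02 to 3.63 CPM.

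Wild-type TAC against T497A sham had 19 members called (57.6%), beside 50.2% of all genes: 16 higher (48.5%, against 25.6%) and 3 lower (9.09%, against 24.6%), with a median of 0.49 over the members and 0.01 over all genes. Egr2 (3.86 ± 0.47, adjusted p = 3.4e-05), Egr3 (3.05 ± 0.36, adjusted p = 2.7e-05) and Egr1 (1.91 ± 0.11, adjusted p = 2.1e-08) led the higher members. The lower ones were Maff (-0.71 ± 0.23), Dusp5 (-0.33 ± 0.13) and Zfp36 (-0.62 ± 0.20). Maff was lost here on leaving out library 1 or 3 of T497A sham or library 1 or 3 of wild-type TAC, with library totals alone, with no filter on low counts, or with only the compared groups in the fit (adjusted p 0.057 to 0.17). Dusp5 was lost on leaving out library 2 of wild-type sham, library 1 or 3 of T497A sham or library 1 or 3 of wild-type TAC, with library totals alone, with no filter on low counts, or with only the compared groups in the fit (adjusted p 0.051 to 0.8), and Zfp36 on leaving out library 1 of T497A sham or any library of wild-type TAC, with library totals alone, or with no filter on low counts (adjusted p 0.055 to 0.19). With library totals alone the split was 21 higher and 0 lower, and 9817 of all 17699 genes were called, 7624 of them higher. Without overlap, wild-type TAC was above T497A sham for 18 members (30% of all genes) and below it for 4 (28.4%).

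The spread between libraries of a group was wider for the members than for all genes by the edgeR fit, but not in every group by the ratio of libraries. The biological coefficient of variation from the edgeR fit had a median of 0.169 over the 33 members and 0.128 over all 17699 genes, and was highest for Nr4a3 (0.474), Nr4a1 (0.446) and Atf3 (0.412) and lowest for Dusp6 (0.0776) and Jun (0.0828). The ratio of the highest to the lowest library, after adding 0.1 CPM, had a median over the members of 1.32 in T497A sham, 1.41 in wild-type sham, 1.27 in T497A TAC and 1.23 in wild-type TAC, beside 1.22, 1.18, 1.197 and 1.23 over all genes. The median was thus the same in wild-type TAC. A ratio of at least 2 was reached by 1 of 33 members in T497A sham, against 11.2% of all genes. It was reached by 6 in wild-type TAC (8.96% of all genes), 4 in wild-type sham (9.59%) and 3 in T497A TAC (8.91%). In wild-type sham the widest were Nr4a1 (4.93), Fosb (3.39) and Fos (3.08), and in wild-type TAC Atf3 (3.95), Egr2 (3.45) and Nr4a3 (3.16). Wild-type TAC 2 was the highest library of its group for 25 of the 33 members (42.0% of all genes), and T497A TAC 3 for 21 (35.6%). These members are no replicates of each other, since all were read from the same libraries.

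Genes that feed and follow the immediate early response were counted from lists chosen with earlier results known. Of 37 other immediate early genes tested (38 listed), 13 were called higher and 4 lower with TAC in wild type, and 12 and 4 in T497A. The backgrounds in wild type and T497A were 25.9% and 12.9% for higher calls and 24% and 11.4% for lower calls. Ptgs2, the inducible cyclooxygenase, rose in wild type from 0.855 ± 0.245 to 6.34 ± 2.78 CPM (SD, n = 3; log2 2.89 ± 0.30), and Hbegf, a ligand of the EGF receptor, from 21.1 ± 3.14 to 46.9 ± 7.53 (log2 1.16 ± 0.12). Both were lower in T497A TAC than in wild-type TAC (-1.54 ± 0.28 and -0.90 ± 0.12). Phlda1, a regulator of cell survival, and the transcription factor gene Ets2 were, after sham, lower in the T497A group (-1.24 ± 0.17 and -0.69 ± 0.10) and rose with TAC in T497A (1.36 ± 0.17 and 0.81 ± 0.10).

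The kinases and factors that act upstream (serum response factor, its partners, CREB and MAP kinases) were called in both directions, 9 higher and 9 lower of 23 in wild type (25.9% of all genes higher, 24% lower) and 5 and 4 in T497A (12.9% and 11.4%), among them Mapk7, the kinase ERK5, higher in both (1.20 ± 0.12 and 0.73 ± 0.12). Of 12 AP-1 partners and EGR corepressors, 8 were higher and 2 lower in wild type and 1 and 1 in T497A, beside the same shares of all genes. Nab2, a corepressor that EGR factors induce and that restrains them, rose under both labels (0.66 ± 0.16 and 0.68 ± 0.16). Of 14 other inhibitors of MAP kinase signalling, 6 were higher and 5 lower in wild type (25.9% and 24% of all genes). In T497A 8 were higher and 0 lower (12.9% and 11.4% of all genes). After sham 4 were lower in the T497A group and 0 higher (2.8% and 2.99% of all genes). Spry4, an inhibitor of receptor tyrosine kinase signalling, was lower in T497A sham (-0.76 ± 0.10) and rose with TAC in T497A (0.97 ± 0.10).

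Of 12 glucocorticoid-induced genes, 2 of which are also members, 5 were higher and 0 lower in T497A sham against wild-type sham (2.99% and 2.8% of all genes). With TAC in T497A 0 were higher and 6 lower (12.9% and 11.4% of all genes). With TAC in wild type 2 were higher and 3 lower (25.9% and 24%). Fkbp5, a textbook glucocorticoid target, was at 112 ± 5.41 CPM in T497A sham, 35.1 ± 9.23 in wild-type sham, 29.8 ± 12.6 in T497A TAC and 41.5 ± 4.37 in wild-type TAC (SD, n = 3). It was higher in T497A sham by 1.67 ± 0.32 and fell with TAC in T497A (log2 -1.91 ± 0.32). Zbtb16, Mt1 and Cdkn1a were also higher in T497A sham (1.07 ± 0.24, 1.17 ± 0.17 and 1.85 ± 0.33), and Cdkn1a, which encodes a cell cycle inhibitor, rose with TAC in wild type (1.94 ± 0.33). The members Sgk1 and Dusp1, which glucocorticoids also induce, were not called between the sham groups, at 49.98 to 84.5 and 80.3 to 88.7 CPM for Sgk1 and 76.4 to 103 and 82.4 to 103 CPM for Dusp1. These values moved with the lower Egr1, Fos, Btg2 and Arc of T497A sham, and their part in those differences was not tested.

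Cell markers and mitochondrial reads moved with TAC too. Of all genes, 25.9% were called higher and 24% lower with TAC in wild type, and 12.9% and 11.4% in T497A. Of 10 cardiomyocyte markers, 9 were lower and 0 higher with TAC in wild type, and their summed level was 44960 to 53767 CPM, against 88474 to 96630 in wild-type sham. In T497A 5 were lower and 0 higher, at 75298 to 80158 CPM against 93937 to 98023. Macrophage markers were higher for 10 of 10 in wild type (630 to 1002 CPM against 300 to 358 in sham) and for 4 of 10 in T497A (417 to 454 against 337 to 394). Fibroblast markers were higher for 9 and lower for 1 of 10 in wild type (4969 to 8957 CPM against 2453 to 2760 in sham), and higher for 4 and lower for 1 in T497A (2282 to 3073 against 2695 to 3468).

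Endothelial markers were higher for 6 of 10 in wild type and 5 of 10 in T497A (25.9% and 12.9% of all genes), with 0 lower (24% and 11.4%). They were at 1637 to 1895 and 1630 to 1750 CPM with TAC, against 1577 to 1619 and 1262 to 1508 after sham. No listed marker of these 4 cell types was at 0 in all libraries. Mitochondrially encoded RNA was 9.67% to 14.7% of counts in wild-type TAC, 19.2% to 19.8% in T497A TAC, 19.1% to 20.99% in wild-type sham and 16.0% to 17.3% in T497A sham. The part of these shifts in the levels of Egr1, Egr2, Egr3, Jun, Socs3 and the other members was not tested.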

How the data were processed

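RNA was purified from cardiac tissue with RNeasy columns, and poly(A) libraries made with the KAPA mRNA HyperPrep kit were read for 50 cycles from a single end, per the labels' protocols. The submitters' processing notes name Trim Galore 0.6.4, STAR 2.7.3a, featureCounts of Subread 1.6.3 and limma 3.50.3, and the builds mm10 and GRCh38, without giving their roles. The deposited values are whole-number counts per gene that the authors did not normalize. The strand setting and annotation release behind them were not given in the sources used here. All 12 count columns were used. Of 55401 gene IDs, 55141 matched GENCODE M21 (GRCm38), which gave exon lengths and overlaps.

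Genes kept by filterByExpr (17699) were scaled by TMM and tested with edgeR 4.0.16 quasi-likelihood F tests (R 4.3.3) on 4 group means over all 12 libraries, and p-values were adjusted by Benjamini-Hochberg over all genes at 0.05. Levels are TMM-scaled CPM, and errors are SE from the fit or SD over 3 libraries. An exact permutation test of 3 against 3 could not go below p = 0.1 and was not used. Library pairs within a group differed beyond counting error (chi-square per degree of freedom 11.4 to 156), so none was treated as a duplicate. The script was tested on simulated data. Each result was recomputed under 22 other settings (DESeq2 1.42.0, limma-voom 3.58.1, scaling, filters, a replicate block, each library left out) and 2 chosen after seeing the data, which left out T497A sham or kept only protein-coding genes of the autosomes. All members are named. Of the other lists, genes named are among the called ones with the smallest p. The members, the 6 other lists and the 12 marker lists were chosen with earlier results of these data known.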

Additional observations from a re-analysis of the deposited data

Results flagged for a closer look

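The response to TAC was tested as differing between the genotype labels through the interaction term of the edgeR fit, and 13 members passed at an adjusted p of 0.05. On the log2 scale, the interaction was 1.62 for Fos, 0.76 for Jun, 0.40 for Jund, 2.26 for Atf3, 1.15 for Egr1, 2.44 for Nr4a1, 1.56 for Btg2 and 1.47 for Arc. It is the T497A difference less the wild-type difference. The wild-type difference was itself negative for Fos (-0.30), Nr4a1 (-0.68) and Arc (-0.56), of which only that of Arc was called. The interaction was -1.05 for Maff, -1.41 for Socs3, -0.59 for Ier3, -1.42 for Gadd45b and -0.99 for Gadd45g. Since Xist and Ddx3y set T497A sham apart from the other 3 groups, genotype, sex and sample exchange cannot be told apart in these values.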

How the results depend on the processing

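Counts of called members stayed within 1.5 times the values in the report under most alternatives. Between the sham groups DESeq2 called 9 members in place of 5. Between the TAC groups limma-voom called 16 and the test with no filter on low counts 4, in place of 9, and with no filter 7 interactions were called in place of 13. T497A TAC against wild-type sham had 22 calls by limma-voom in place of 12. Counts over all genes moved too. Between the sham groups DESeq2 called 1697 of 17699 genes in place of 1024. Between the TAC groups limma-voom called 8816 in place of 6321, and with no filter 5810 of 31513 genes were called. The interaction was called for 4735 of 31513 with no filter, in place of 5218 of 17699. For T497A TAC against wild-type sham limma-voom called 3971 in place of 1773. With each library left out in turn, the counts ranged from 12 to 17 for wild-type TAC against sham, 14 to 19 for T497A TAC against sham, 3 to 7 between the sham groups, 4 to 8 between the TAC groups, 8 to 11 for the interaction, 9 to 14 for T497A TAC against wild-type sham and 15 to 21 for wild-type TAC against T497A sham. In the same order, a fit with the replicate number as a block called 17, 17, 5, 7, 10, 13 and 17. Over all 17699 genes that fit called 8579, 4021, 862, 5994, 4921, 1581 and 8624. That fit ended 10 calls (adjusted p 0.055 to 0.073), beside the settings given with each gene: Ier5 in wild type, Nr4a1 in T497A, Fos between the sham groups, Atf3 and Arc between the TAC groups, the interactions of Atf3, Maff and Nr4a1, and Atf3 and Dusp5 in wild-type TAC against T497A sham. The numbers did not pair the samples: 18 same-numbered pairs had correlations of their deviations from -0.113 to 0.0742, and 36 others from -0.122 to 0.110. Of 114 gene results, 93 were called, and over all alternatives their values had 2344 times the same direction and side of the threshold, 271 times lost a call and 29 times gained one. The sign turned 5 times, all in values that were not called. Fos in wild type turned to 0.037 and the Junb interaction to -0.13 with library totals alone, while with each library left out Fos in wild type ranged from -0.64 to 0.10 and the Egr2 interaction from -0.66 to 0.34. The cause was not tested, except that leaving out a library leaves fewer samples. Low counts kept Fosl1 out of the tests, with at most 15 reads in a library. Its exons overlap Ccdc85b on the other strand over 1163 bases, and reads of the overlap cannot be assigned.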

Other observations

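Of 10 heat shock genes, 0 were called higher and 3 lower with TAC in wild type (25.9% and 24% of all genes). In T497A 1 was called higher and 2 lower (12.9% and 11.4% of all genes). The mitochondrial chaperone genes Hspd1 and Hspe1 were lower with TAC under both labels (Hspd1 -0.93 ± 0.07 in wild type and -0.29 ± 0.07 in T497A on the log2 scale, SE). Hspa1b, whose reads can be shared with its near-identical copy Hspa1a, was the 1 called higher, at 1.80 ± 0.404 CPM in T497A sham and 15.8 ± 13.8 CPM in T497A TAC (SD, n = 3), where the SD is nearly as large as the mean.

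The marker lists that the report does not describe were called with TAC to unequal extents, beside 49.9% of all genes called either way in wild type and 24.4% in T497A. Mural markers were higher for 6 and lower for 2 of 10 in wild type (3 and 0 in T497A), atrial markers for 3 and 2 of 9 tested (1 and 5), and mesothelial markers for 1 and 6 of 10 (1 and 0). In wild type and T497A in turn, the counts higher and lower were 1 and 1, then 2 and 0, of 6 neutrophil markers, 1 and 0, then 1 and 0, of 10 lymphocyte markers, and 1 and 0, then 1 and 1, of 7 erythroid markers. They were 2 and 1, then 1 and 0, of 4 skeletal muscle markers and 2 and 3, then 0 and 2, of 7 Schwann cell and neuronal markers. The summed level of the skeletal muscle markers, which include Acta1, the skeletal actin gene that heart muscle also expresses, was 273 to 309 CPM in wild-type sham and 2462 to 2683 in wild-type TAC. It was 116 to 353 CPM in T497A sham and 1517 to 1734 in T497A TAC. The atrial sum was 1114 to 1379 CPM in wild-type sham and 3893 to 4395 in wild-type TAC, and 1406 to 2582 in T497A sham and 1231 to 1592 in T497A TAC. The part of these shifts in the levels of the immediate early genes was not tested.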
